A study of Caenorhabditis elegans with 8 samples.

Results

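The core cell death pathway of the nematode Caenorhabditis elegans was followed through its 5 central genes, the BH3-only genes egl-1 and ced-13 and the genes ced-9, ced-4 and ced-3. They were found by symbol among the probe sets that the platform annotation pairs with a single gene, which gave 7 probe sets of 22548 on the array and 5 genes of 17118. The set was selected on the difference of egl-1 between mutant and wild type on these same arrays, together with its known partners, so the differences of all 5 are described and not tested. Where a gene had more than 1 probe set, the one with the highest mean over the 8 arrays was taken as its main value and the other is given beside it.

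Worms labelled as nucleotide excision repair-deficient ercc-1 mutants, in the N2 background, gave RNA for 4 arrays, and wild type N2 worms, the standard laboratory strain, gave RNA for 4 arrays. Cultures of both strains held all stages and grew for 3 to 4 days, with Escherichia coli HT115(DE3) as food. The bacteria carried pL4440, the usual empty vector of feeding RNA interference, in mutant and wild-type cultures alike. Biotin-labelled total RNA was read on Affymetrix C. elegans Genome Arrays, each with 1 colour, and every probe set had 1 value per array, taken here as log2. The labels give neither the ercc-1 allele nor whether replicates came from separate cultures, so the spread between replicates may be technical.

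In this pathway the decision to die is largely set by how much EGL-1 a cell makes. EGL-1 binds the Bcl-2 homologue CED-9 on mitochondria, which releases the adaptor CED-4, and CED-4 then assembles and activates the caspase CED-3. CED-13 is a further BH3-only protein, and CEP-1, the worm relative of p53, is known to raise transcription of both egl-1 and ced-13 after DNA damage. In wild-type development egl-1 is transcribed mainly in cells that are about to die, whereas ced-9, ced-4 and ced-3 are transcribed far more broadly.

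Array medians lay between 7.44 and 7.59 in the mutant and between 7.39 and 7.44 in wild type, so centring each array on its median lowers every difference by 0.09 on the log2 scale. The typical (median) SD per probe set was 0.154 within the mutant and 0.113 within wild type. The value of ercc-1 itself was 9.84 ± 0.074 on mutant arrays and 9.85 ± 0.124 on wild-type arrays (± SD, n = 4 per strain). As neither the allele nor the position of its probes in the gene is known here, that reading does not check the labels. Markers of germ line (10 of 10), oocytes (10 of 10), early embryos (9 of 10) and yolk (5 of 6) had a probe set here, and 0 of their values were listed at 0.

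The gene egl-1 was the member that stood higher in the mutant. Its probe set 175845_at read 8.02, 8.12, 7.99 and 7.61 on the mutant arrays, against 7.03, 6.91, 6.85 and 6.75 on the wild-type arrays. All 4 mutant values lay above all 4 wild-type values, and mutant replicate 4 was the lowest of its group, still 0.58 above the highest wild-type array. The mean was 7.94 ± 0.224 over mutant arrays and 6.89 ± 0.117 over wild-type arrays (± SD, n = 4 per strain). The mutant level was thus 2.07-fold that of wild type (log2 difference 1.05, SE 0.116, 95% confidence interval 1.73-fold to 2.48-fold). In rank, 68 of 22548 probe sets had a log2 difference at least this large, egl-1 included. In bulk RNA of whole worms, more cells that transcribe egl-1 and more egl-1 RNA per cell cannot be told apart.

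The other BH3-only gene, ced-13, did not show such a difference. Its single probe set, 188266_at, read 6.35, 6.30, 6.30 and 6.38 on the mutant arrays, against 6.34, 6.22, 6.33 and 6.28 on the wild-type arrays. The groups overlapped, with a log2 difference of 0.040 (SE 0.063, 95% confidence interval -0.10 to 0.18), and it was -0.050 after median centring and 0.00094 after quantile normalization. The upper bound corresponds to a level 1.13-fold that of wild type. The mean of the probe set over all arrays, 6.31, lay under 6.42, so ced-13 was among the dimmest 25% of the array. No background level was known, and whether a ced-13 signal was read at all was not tested.

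**Figure D1:**
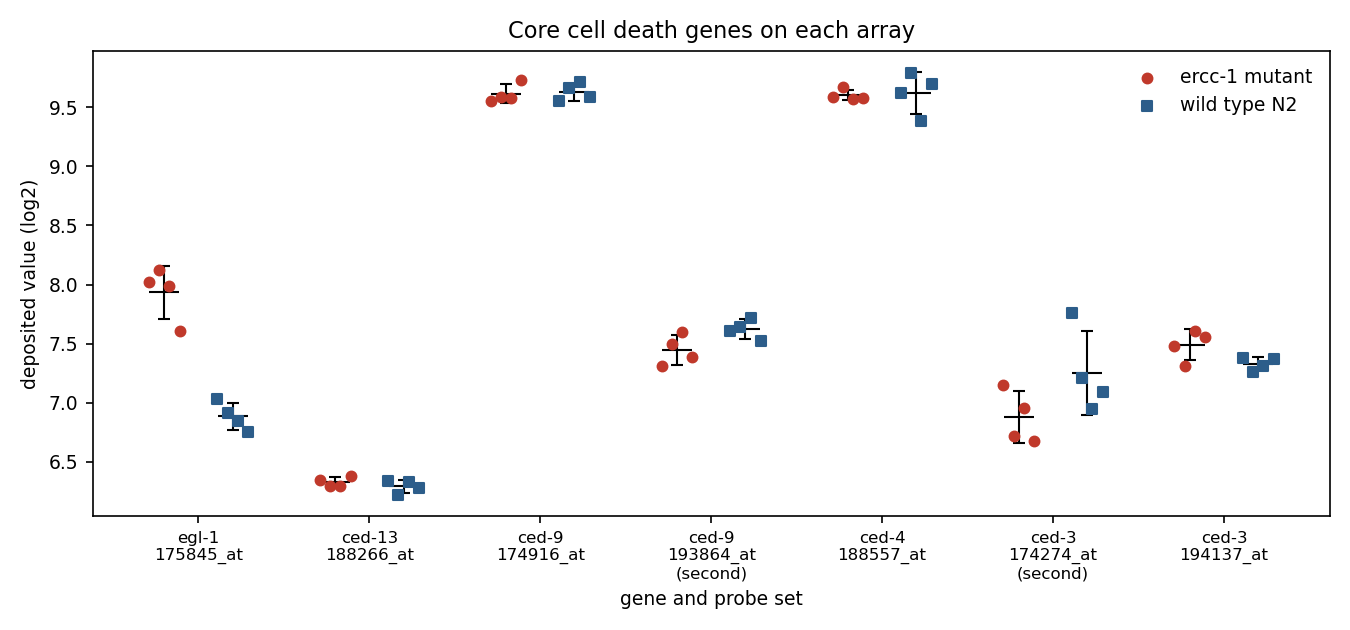
Deposited log2 values (vertical axis) of the 7 probe sets of egl-1, ced-13, ced-9, ced-4 and ced-3 (horizontal axis), with a circle per ercc-1 mutant array, a square per wild type N2 array, and the mean and SD of each group as a black bar (n = 4 each). The groups are separate for egl-1, at 7.61 to 8.12 in the mutant and 6.75 to 7.03 in wild type, and overlap for the other 6 probe sets.

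The inhibitor ced-9, which encodes the protein that EGL-1 binds, read nearly the same in both strains by its main probe set. Probe set 174916_at gave 9.55, 9.59, 9.58 and 9.73 in the mutant, against 9.55, 9.66, 9.71 and 9.59 in wild type, a log2 difference of -0.015 (SE 0.072, 95% confidence interval -0.18 to 0.15). The other ced-9 probe set, 193864_at, gave 7.31, 7.50, 7.60 and 7.39 in the mutant, against 7.61, 7.64, 7.72 and 7.52 in wild type, a log2 difference of -0.17 (SE 0.083, 95% confidence interval -0.36 to 0.015). All 4 mutant arrays were below the wild-type mean on this dimmer probe set, although mutant replicate 3 lay above wild-type replicate 4. The 2 ced-9 probe sets followed each other weakly from array to array (Pearson r = 0.21 over 8 arrays, a description with no test).

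The adaptor ced-4 had the smallest scatter among mutant arrays after ced-13. Its probe set 188557_at read 9.59, 9.67, 9.57 and 9.58 in the mutant, against 9.62, 9.79, 9.38 and 9.70 in wild type. The wild-type values spanned the mutant values on both sides, with a log2 difference of -0.020 (SE 0.093, 95% confidence interval -0.23 to 0.19). When 1 array was left out it ran from -0.10, without wild-type replicate 3, to 0.036, without wild-type replicate 2, and it was -0.11 after median centring.

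The caspase gene ced-3 was read by 2 probe sets whose differences had opposite signs. The main one, 194137_at, read 7.48, 7.31, 7.61 and 7.56 in the mutant, against 7.38, 7.26, 7.31 and 7.37 in wild type. Mutant replicate 2 lay among the wild-type values and the other mutant arrays above them, with a log2 difference of 0.16 (SE 0.081, 95% confidence interval -0.022 to 0.34). The other, 174274_at, read 7.15, 6.72, 6.96 and 6.68 in the mutant, against 7.76, 7.21, 6.95 and 7.09 in wild type. Here all 4 mutant arrays were below the wild-type mean, the groups overlapped, and the difference in log2 was -0.38 (SE 0.176, 95% confidence interval -0.77 to 0.021). The wild-type SD of this probe set was 0.355, wider than that of any other of the 7, with wild-type replicate 1 at its top. The mean of both probe sets gave a ced-3 difference of -0.11, so these arrays give no single direction for ced-3.

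**Figure D2:**
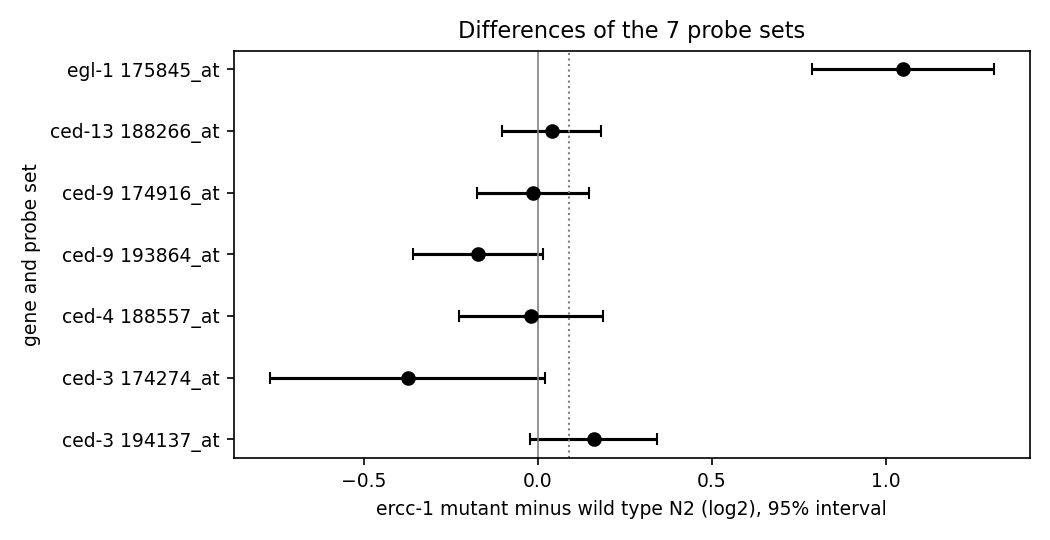
Log2 difference, ercc-1 mutant minus wild type N2 (horizontal axis), of each of the 7 probe sets (vertical axis), with 95% confidence intervals from the fit over all probe sets. The solid line marks 0 and the dotted line the 0.09 by which mutant array medians exceeded wild-type ones. The interval of egl-1 lies at 0.79 to 1.31, and those of the other 6 probe sets include 0.

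Set against the rest of the core pathway on the same array, egl-1 kept its difference. For each array the mean of the main ced-9, ced-4 and ced-3 values was taken from the egl-1 value, which removes any shift shared by a whole array. This gap was -0.85, -0.74, -0.93 and -1.35 on the mutant arrays, against -1.82, -1.99, -1.95 and -2.14 on the wild-type arrays. The groups did not overlap, and the gap differed by 1.01 on the log2 scale (SE 0.148). The same gap for ced-13 was -2.57 ± 0.040 on mutant arrays and -2.57 ± 0.096 on wild-type arrays (± SD, n = 4 per strain), and it differed by -0.0017 (SE 0.052). The ced-13 gaps of the groups overlapped, and those of egl-1 did not. Both gaps rest on the main probe sets alone. The other probe sets of ced-9 and ced-3, with log2 differences of -0.17 and -0.38, were not used in them. The size of each gap difference therefore depends on that choice of probe sets. Both gaps are descriptions, since the set was chosen on this contrast.

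In the fit over all probe sets, 1 of the 5 genes, egl-1, passed an adjusted p of 0.05, and the same 1 had groups that did not overlap. Across the array 0.665% of probe sets passed in either direction, 0.537% as higher and 0.129% as lower, and the groups did not overlap in 6.48%, 4.72% as higher and 1.76% as lower. As egl-1 was chosen with this contrast in view, nothing is read from its share.

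The 5 members did not share 1 pattern over the arrays. Pearson correlations between main probe sets over the 8 arrays ran from -0.64, for ced-13 and ced-4, to 0.55, for egl-1 and ced-3 and for ced-13 and ced-3. With each group's mean taken off, egl-1 and ced-3 gave -0.46 and egl-1 and ced-9 gave -0.71. These values describe 8 arrays in 2 groups and carry no test.

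The 5 genes lie at 5 places on 4 chromosomes, egl-1 on V, ced-13 on X, ced-9 and ced-4 on III and ced-3 on IV. The protein-coding neighbours on either side of egl-1 were examined by position, a choice made after the values had been seen. Those before it, rrsr-1 and F23B12.1, had log2 differences of -0.033 and -0.025, and those after it, F23B12.4 and dlat-1, had 0.19 and 0.018. None of these 4 had groups that were separate, so the difference at egl-1 was not seen in the genes next to it. The 14 measured neighbours of the other 4 members had log2 differences from -0.16 to 0.22. Of these 14, cho-1, near ced-3, was the 1 whose groups did not overlap, with 0.19 (limma adjusted p = 0.412). Across the array the groups did not overlap in 6.48% of probe sets, so nothing is read from this 1.

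Regulators of egl-1 transcription and genes of germ line death and DNA damage signalling were examined as 2 lists. Of 12 genes that regulate egl-1 transcription in somatic cells, 0 passed in either direction, where 0.672% of all 17118 genes passed. Their median log2 difference was 0.040, against 0.03 over all genes. The Snail-family repressor ces-1 was at 6.87 ± 0.109 on mutant arrays and 6.98 ± 0.073 on wild-type arrays (± SD, n = 4 per strain, limma adjusted p = 0.697). The bZIP gene ces-2, which acts before ces-1, had a log2 difference of 0.16 (adjusted p = 0.612). The Hox gene mab-5 had 0.31 (adjusted p = 0.729), with 8.86 and 8.43 on mutant replicates 1 and 2, 7.81 and 7.78 on mutant replicates 3 and 4, and between 7.78 and 8.0 in wild type. The high mab-5 arrays were thus 2 of the 4 mutant arrays.

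Of 28 measured genes of germ line death and DNA damage signalling, 0 passed in either direction, where 0.672% of all genes on the array passed. The median log2 difference of the 28 was -0.011. The kinase gene akt-2, which acts in insulin-like signalling, had 0.24 (SE 0.106, adjusted p = 0.509). The PAX gene egl-38, a known activator of ced-9 transcription, had 0.24 (SE 0.126, adjusted p = 0.59), and the checkpoint kinase gene atm-1 had 0.21 (SE 0.111, adjusted p = 0.597). The gene cep-1, named after its values were seen because of its place in the pathway, read 10.03, 10.07, 10.21 and 10.03 in the mutant, against 10.19, 10.19, 9.83 and 10.15 in wild type. Its groups overlapped, with a log2 difference of -0.005 (SE 0.096, 95% confidence interval -0.22 to 0.21).

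Genes that act beside or after the core pathway gave 0 calls as well, where 0.672% of all genes on the array passed. With so small a share, nothing is read from 0 calls in lists of this length. Among 8 caspase homologues and apoptosis inhibitors the median log2 difference was -0.028. The initiation factor subunit gene eif-3.K, whose product promotes cell death, read 11.38, 11.37, 11.17 and 11.39 in the mutant, against 11.48, 11.52, 11.53 and 11.42 in wild type (log2 difference -0.16, adjusted p = 0.526). Its groups did not overlap, though by 0.03 at the closest. The caspase homologue gene csp-3 had 0.12 (adjusted p = 0.769) and bir-2, of the inhibitor of apoptosis family, had -0.092 (adjusted p = 0.77). Among 9 mitochondrial and caspase-substrate factors the median was -0.055, with the CED-3 substrate gene ced-8 at -0.10 (adjusted p = 0.755), wah-1, the homologue of apoptosis-inducing factor, at -0.10 (adjusted p = 0.771), and the mitofusin gene fzo-1 at -0.062 (adjusted p = 0.867).

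Clearing of dead cells was covered by 18 engulfment genes and 10 nuclease genes, with medians of 0.015 and 0.032. The engulfment list held nrf-5, which encodes a secreted lipid-binding protein that takes part in engulfment. It read 9.39, 9.18, 9.04 and 9.44 in the mutant, against 8.92, 8.83, 8.88 and 8.97 in wild type. The groups did not overlap, and the log2 difference of 0.36 (SE 0.097) had an adjusted p of 0.19 in limma. The small GTPase gene rab-7, needed for phagosome maturation, had -0.32 (adjusted p = 0.573), and the adaptor gene ced-2 had -0.080 (adjusted p = 0.798). Among the nucleases, nuc-1, a lysosomal DNase II, was at 11.44 ± 0.169 on mutant arrays and 11.14 ± 0.097 on wild-type arrays (± SD, n = 4 per strain, limma adjusted p = 0.296). The nuclease gene crn-7 had a log2 difference of 0.15 (adjusted p = 0.587), and crn-1 one of -0.13 (adjusted p = 0.666).

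In all, 0 of 85 measured genes around the core pathway passed limma's test at an adjusted p of 0.05, and 2 of 85, nrf-5 and nuc-1, had an unadjusted p under 0.05. Of all genes on the array 0.672% passed the adjusted threshold and 10.5% had an unadjusted p under 0.05 (9.87% of all probe sets). The groups did not overlap in 2 of the 85, eif-3.K and nrf-5, and in 6.48% of all probe sets. Of the 85, 40 lay above wild type and 45 below, with a median of -0.005. Their log2 differences ran from -0.32 for rab-7 to 0.36 for nrf-5. The difference of egl-1 was larger than each of these, but egl-1 was chosen on its difference, so nothing is read from that. With array weights 1 of the 85 passed, nrf-5, but 1423 of all 22548 probe sets passed in that setting, so nothing is read from this call. The lists were written with earlier results of these arrays known.

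**Figure D3:**
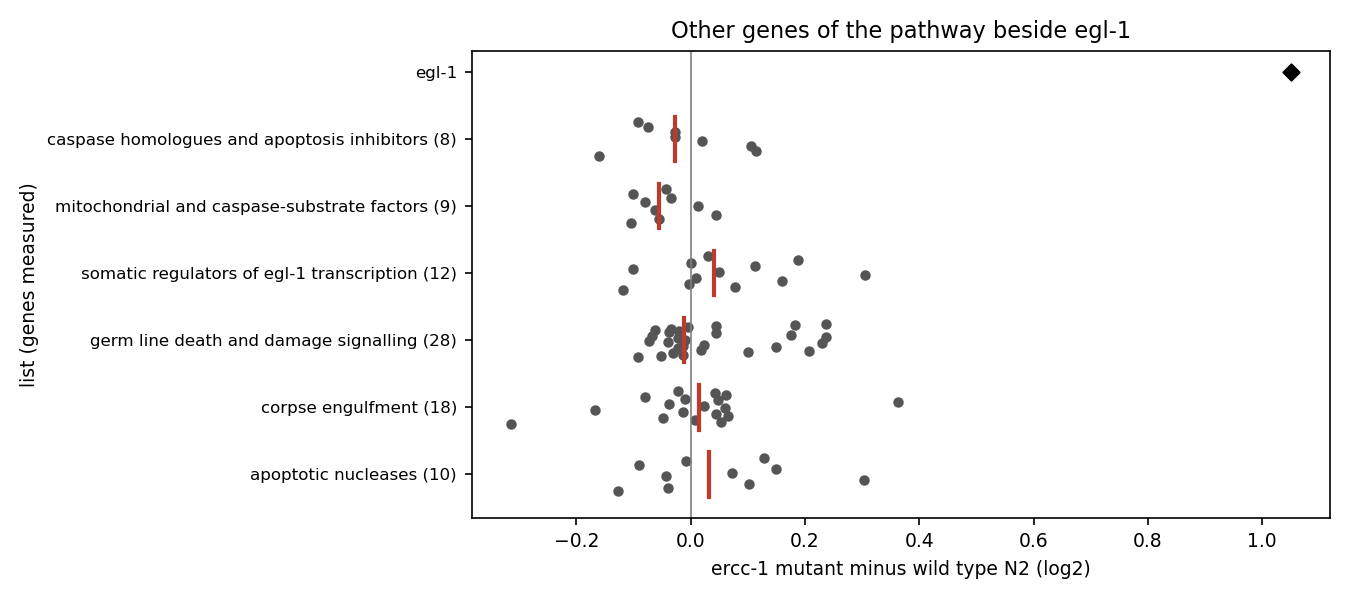
Log2 difference, ercc-1 mutant minus wild type N2 (horizontal axis), of each measured gene in 6 lists around the core pathway (vertical axis, number of genes in brackets), with a red bar at each list's median and egl-1 as a diamond. The 85 genes lie between -0.32 and 0.36, and egl-1 lies at 1.05.

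The means of the sperm and male marker lists also did not overlap between the groups. All 21 measured major sperm protein genes lay above wild type, and 18 passed the test (0.672% over all genes on the array). Their probe sets all have the suffix _x_at, which marks possible matches to several transcripts, and the genes are close copies, so these are not 21 separate readings. The number that passed was 10, 5, 13 and 21 without mutant replicates 1 to 4 in turn, and 0 whichever wild-type replicate was left out. Their mean log2 level was 11.73 to 12.55 on the mutant arrays, against 10.97, 10.74 and 10.86 on wild-type replicates 1 to 3. The highest wild-type array, replicate 4, lay 0.74 below the lowest mutant array. The 8 genes of male neurons and male sensory cilia averaged 6.24 to 6.43 in the mutant, against 6.10 to 6.21 in wild type, with 7 of the 8 above wild type and 5 of the 8 under the bound for dim probe sets. This list was separated by 0.02, less than the 0.09 between array medians. The dim genes cwp-2 and cil-7 had log2 differences of 0.68 and 0.42, and the other 6 had -0.005 to 0.18, with a mean of 0.074. Of the 8, cwp-2 passed the test, and 0 of 8 did whichever wild-type replicate was left out. In both lists 0 values were listed at 0. Relative to the wild-type mean, the sperm list stood at 0.90, 0.87, 0.84 and 1.66 on mutant replicates 1 to 4, and egl-1 stood at 1.14, 1.24, 1.11 and 0.73 on the same arrays. The sperm list held only major sperm protein genes. Mutant replicate 4 was thus the array with the highest mean of that gene family and the lowest egl-1 of the mutant group. Without this array the egl-1 difference was 1.16. Over all 8 arrays, group difference included, the Pearson correlation with egl-1 was 0.77 for the sperm list mean and 0.74 for the male list mean. The part of males or sperm in the egl-1 difference was not tested.

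The list means of the other tissues overlapped between the groups. The mean level of 10 germ line genes was 10.26 to 10.43 in the mutant and 10.34 to 10.39 in wild type, and that of 10 oocyte genes was 12.23 to 12.30 in the mutant and 12.14 to 12.33 in wild type. Embryos are a main site of programmed cell death, but the list here covers early embryos, and no list of later embryos was examined. The 9 early embryo genes averaged 6.87 to 7.0 in the mutant and 6.87 to 6.97 in wild type, and 3 of them lay under the bound for dim probe sets. Of these 9, pha-4 read 9.21 to 9.31 in the mutant and 8.96 to 9.01 in wild type. The gene pes-1 read 6.50 to 6.60 in the mutant and 6.67 to 6.86 in wild type, so these genes were separate in opposite directions. Across the array the groups did not overlap in 6.48% of probe sets. The 5 yolk protein genes averaged 13.86 to 13.92 in the mutant and 13.70 to 13.91 in wild type. In these 4 lists 0 of 34 genes passed limma's test in either direction, and 2 had an unadjusted p under 0.05. Of all genes on the array 0.672% passed and 10.5% had an unadjusted p under 0.05.

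**Figure D4:**
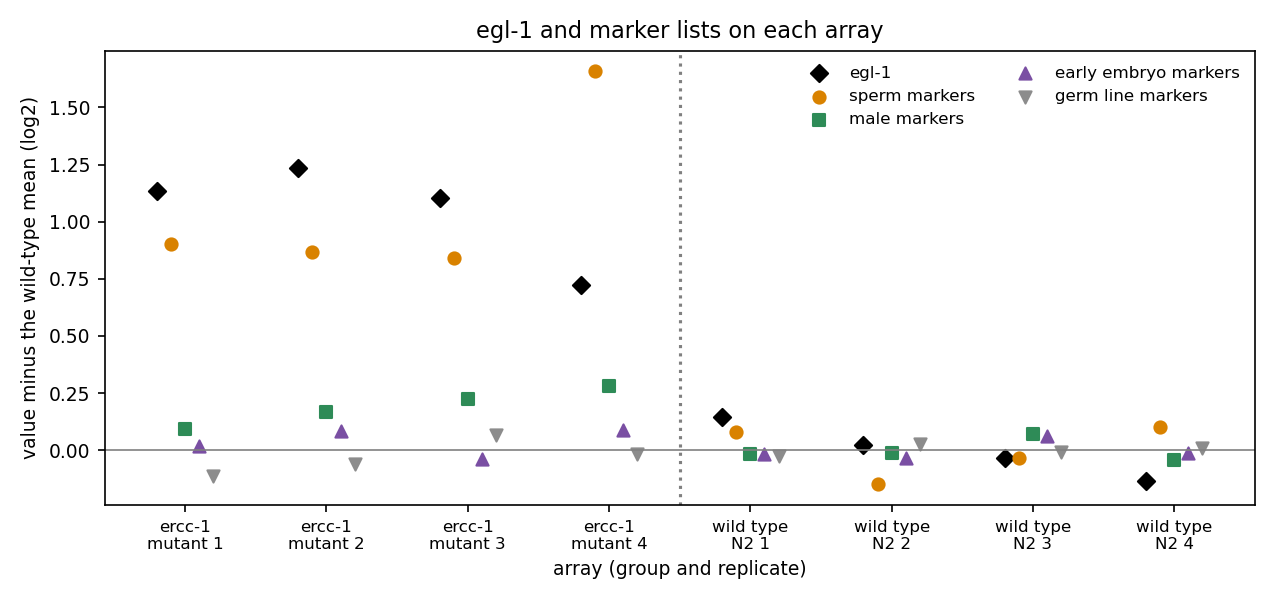
Value minus the wild-type mean, on the log2 scale (vertical axis), of egl-1 and of the mean of 4 marker lists on each of the 8 arrays (horizontal axis, ercc-1 mutant left of the dotted line, wild type N2 right). On the mutant arrays egl-1 stands at 0.73 to 1.24 and the sperm list at 0.84 to 1.66, while embryo and germ line markers stand at -0.11 to 0.090.

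The probe sets whose pattern over the 8 arrays was most like that of egl-1 were sought among 20765 single-gene probe sets of other genes. The 5 with the highest Pearson correlation were those of F08D12.7 (r = 0.98), Y47G7B.2 (0.977), srlf-10 (0.973), abt-2, an ABC transporter gene (0.97), and spp-10, a saposin-like protein gene (0.969). Their log2 differences were smaller than that of egl-1, between 0.21 and 0.44. Their groups did not overlap, as in 6.48% of all probe sets. As the 5 were picked for likeness to egl-1, whose groups were apart, nothing is read from that. For abt-2 the other probe set had the higher mean (6.32 against 6.13). Its difference was -0.15, with groups that did not overlap, in the opposite direction. The abt-2 probe sets lay under the bound for dim probe sets. The other probe set of Y47G7B.2 had 0.14, and those of F08D12.7 had 0.015 and 0.24. Those of spp-10, brighter than the one above, had 0.31 and 0.32. With the group means taken off, so that only scatter between replicates counts, 5 other probe sets came first, those of chil-24, C26D10.7, bam-2, W01C9.1 and pign-1 (r = 0.986 to 0.996). These are the highest of 20765 values over 8 arrays, given as descriptions with no test.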

How the data were processed

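The authors deposited 1 table of values per probe set and array, read here as log2 intensity; the log base is not stated and was inferred from the range of 0 to 14.38. Affymetrix Expression Console 1.1 made them, per the submitters' processing notes, with summarisation, background and normalization steps that the sources used here do not give. No further normalization was applied. Names came from the platform annotation (20766 with 1 gene, 887 with several, 895 with none) and a RefSeq table (assembly WBcel235), which held 20701 of the single-gene ones and changed 0 symbols.

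Differences are mutant minus wild type. They were fitted by lmFit and eBayes of limma 3.58.1 (R 4.3.3), two-sided, on 4 arrays against 4, with Benjamini-Hochberg adjustment over 22548 probe sets. The fit was tested on simulated data with independent noise for each value and no effect shared by a whole array. That check does not cover such shared effects. The members, lists and tests were chosen with earlier results of these data known. Named are the 5 members, ercc-1, called genes or otherwise the 3 with the smallest p in each list, and the 5 most like egl-1 by each of 2 correlations. Genes named outside this rule, after their values were seen, are cep-1, neighbours of the members and single marker genes. Leaving out each array for the marker counts was also added then. Of the listed genes, 10 had no single-gene probe set (hif-1, med-2, vit-3 and 7 msp genes). Replicate numbers did not meet the rule for pairing. The number of arrays (n = 4 per group) limits the precision.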

Additional observations from a re-analysis of the deposited data

Results flagged for a closer look

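Among 72 sets of 4 arrays (the named probe sets, each in mutant and wild type), 4 held an array far from the other 3, with a gap whose share of the set's range was above Dixon's 95% critical value, and chance gives about 1 in 20. None of them was a probe set of egl-1, ced-13, ced-9, ced-4 or ced-3. Mutant replicate 3 read 11.17 for eif-3.K, with the other mutant arrays at 11.37 to 11.39. Mutant replicate 4 read 7.82 for egl-38, with the others at 7.50 to 7.55. Wild-type replicate 3 read 7.42 for akt-2, with the others at 7.71 to 7.74. Wild-type replicate 4 read 10.18 for spp-10, with the others at 10.25 and 10.26.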

How the results depend on the processing

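The egl-1 difference was above 0 in all 16 alternatives, from 0.96 after median centring to 1.20 with array weights, and from 0.99 to 1.16 when 1 array was left out. Its gap to ced-9, ced-4 and ced-3, from main probe sets alone, stayed between 0.93 and 1.21 in 14 alternatives. Differences of the other members were small enough to move with the setting: ced-13 and ced-9 read -0.050 and -0.105 after median centring, ced-9 and ced-3 read -0.094 and -0.11 as the mean of their probe sets, and ced-3 read 0.032 with array weights. The ced-13 gap, also from main probe sets alone, had a negative value in 7 of 13 alternatives (-0.040 to 0.037). ced-13 has no value without the dimmest 25% of probe sets, which leaves it out. The count of 150 called probe sets was 46 without probe sets of suffix _x_at or _s_at, 1423 with array weights, 246 at a threshold of 0.10 and 32 at 0.01, and 29 to 268 when 1 array was left out (268 without mutant replicate 4, 29 without wild-type replicate 2). Pathway genes called numbered 1 with array weights and 0 in the other alternatives. The ced-2 difference turned to 0.0017 with array weights, and that of ercc-1 ran from -0.053 to 0.041 when 1 array was left out, with values above 0 where mutant replicate 2 (0.014) or wild-type replicate 3 was missing. The causes were not tested. Same-numbered arrays correlated at 0.47, 0.014, 0.040 and 0.20 after group means were removed, and 1 of 4 mutant arrays correlated best with its own number. With the replicate block 125 probe sets were called and the egl-1 difference was 1.05 (SE 0.085).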
